A study of Mus musculus with 8 samples.

Results

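Respiratory complex I is the first enzyme of the mitochondrial respiratory chain, and its genes were followed here in mouse primordial germ cells (PGCs), from which sperm or eggs later form. Members were taken by name: symbols made of Nduf, then a, b, c, s or v and digits, and the assembly factors Ndufaf with digits. This gave 41 genes of 19938 genes with a probe of their own, namely 6 core subunits, 9 accessory subunits of the matrix arm, 18 of the membrane arm, Ndufa4 and 7 assembly factors. Where a gene had several probes, the one of highest mean was used. Ndufb1, Ndufb4 and Ndufaf8 had no probe of a single symbol and were not analysed here.

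PGCs were sorted from 4 mutant embryos, homozygous for the Ror2 allele Y324C (Ror2Y324C/Y324C), and from 4 WT embryos (Ror2+/+), with 1 microarray for each embryo at embryonic day 9.5. Ror2 is a receptor for Wnt5a. All embryos came from heterozygous Ror2 parents on a mixed strain background, and all fathers carried the Oct4-ΔPE reporter (Tg/Tg) whose GFP marked the cells for sorting from the trypsin-digested posterior part. The allele was not limited to germ cells, and the labels do not say which embryos shared a litter. Somite counts, which track stage, were 24, 22 to 23, 23 and 21 to 22 for mutants 1 to 4, and 25, 25, 22 and 21 for WT 1 to 4.

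Complex I takes electrons from NADH, passes them through a flavin and a chain of iron-sulfur clusters to ubiquinone, and pumps protons across the inner mitochondrial membrane. The enzyme is L-shaped. A matrix arm holds the redox centres and a membrane arm holds the proton pumps, whose central subunits are encoded by mitochondrial DNA. Core subunits carry out catalysis, accessory subunits form a shell that the enzyme needs for assembly and stability, and assembly factors act on intermediates and leave before the enzyme is complete. The roles named below rest mostly on the human and bovine enzymes. Migrating mouse PGCs are known to change their energy metabolism as they develop.

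All 12 measured PGC markers were at 7.55 or above on the log2 scale of every array, with Pou5f1 between 10.91 and 11.37. The median over all probes was 5.37 to 5.49 in mutants and 5.39 to 5.58 in WT. With 4 arrays a group, precision is limited by their number. The spread of values over genes was uneven: its SD ran from 1.83 to 1.94 in mutants and from 1.77 (WT 3) to 1.95 (WT 1) in WT. WT 3 had the narrowest distribution and, on deposited values, the lowest PGC marker mean, 9.84 against 9.96 to 10.13 elsewhere. With the distributions of all arrays made equal, that mean was 9.94 in WT 3, 9.94 in mutant 1 and 9.99 to 10.16 elsewhere. The mean of 8 measured primitive erythroid markers (of 10 listed) was 4.89 to 5.10 in mutants and 4.85 to 5.55 in WT, highest in WT 3, where 5 of the 8 had their highest value. WT 3 also had the highest mean of 10 macrophage markers (mutants 4.54 to 4.75, WT 4.58 to 5.01), with 5 of the 10 highest there. Its mean of 8 trunk mesenchyme markers was the highest too (mutants 5.20 to 5.33, WT 5.08 to 5.54), with 2 of the 8 highest there. The mean of 8 hindgut endoderm markers was highest in WT 4 (mutants 6.60 to 6.99, WT 6.51 to 7.18). On deposited values the mean was higher in mutants for 0 of the 8 erythroid and 1 of the 10 macrophage markers. It was higher in mutants for 3 of the 8 trunk mesenchyme and 4 of the 8 hindgut markers, and for 44.6% of all genes. With all distributions made equal, of the erythroid and macrophage markers Klf1, Fcer1g, Csf1r and C1qb were higher in mutants, by 0.04 to 0.17. Of all genes 52.3% were then higher. WT 4 (5.27 and 4.90) also lay above every mutant for the erythroid and macrophage lists. WT 1 had the lowest erythroid mean of all arrays (4.85), and its macrophage mean (4.58) lay above only that of mutant 2 (4.54). WT 2 (5.07 and 4.66) lay inside the range of the mutants for both lists. The part of these markers in the results was not tested. Results are given with and without WT 3. Mutant 4 and WT 3 were the arrays with high Xist (6.31 in mutant 4 and 7.07 in WT 3, with the other 6 arrays at 4.11 or below).

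No complex I gene passed the test between mutant and WT PGCs: 0 of 41 members had a limma adjusted p under 0.05, where 0% of all genes did. The values nevertheless leaned one way on the deposited scale. In 34 of 41 members the mutant mean was above the WT mean, with a median difference of 0.23 (log2, mutant minus WT). Over all genes tested 44.6% were above 0, with a median of -0.02. Bright probes leaned the same way: among the 4985 genes of highest mean, which held 37 members, 66.4% were above 0 with a median of 0.08. Without WT 3 the median of the members was 0.14 and 29 were above 0. Of the 4985 brightest genes 59.2% were then above 0, with a median of 0.04. In a bulk sort, fewer cells of a type and less RNA per cell cannot be told apart.

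**Figure D1:**
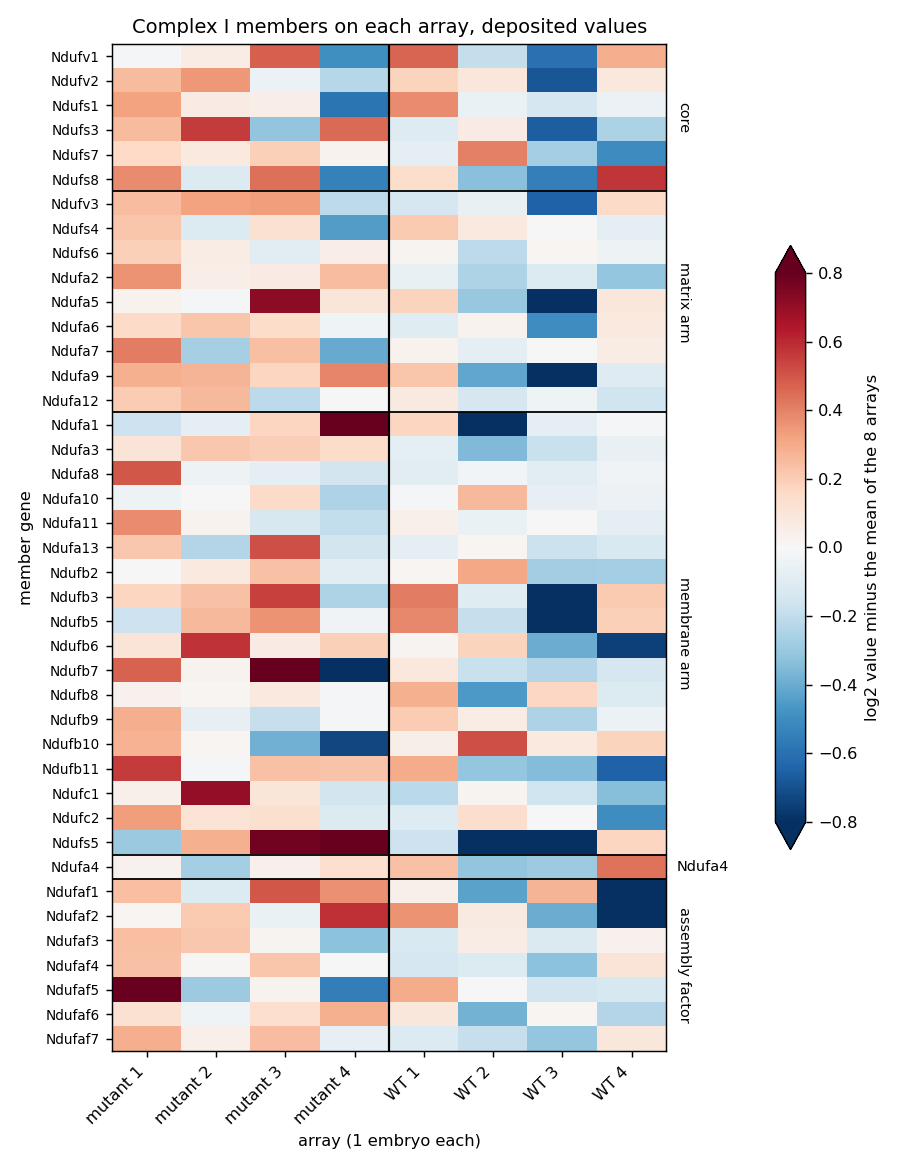
Log2 value of each of the 41 members (rows, grouped by role) on each of the 8 arrays (columns, mutants left, WT right), as the difference from that member's mean over the 8 arrays. WT 3 is the lowest array for 14 members and mutant 4 for 10, and mutant 1 is the highest for 13.

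The mean of the 41 members was 9.14, 9.03, 9.11 and 8.89 in mutants 1 to 4, and 9.02, 8.82, 8.65 and 8.84 in WT 1 to 4. The groups overlapped, because mutant 4 lay below WT 1. Mutant 1 was the highest array for 13 members and the lowest for 0. WT 3 was the lowest array for 14 members, mutant 4 for 10, WT 4 for 8 and WT 2 for 7. The group means were 9.04 ± 0.11 in mutants and 8.83 ± 0.15 in WT (SD, n = 4 each). With the distributions of all arrays made equal (quantile normalization) they were 9.02 ± 0.09 in mutants and 8.86 ± 0.09 in WT.

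**Figure D2:**
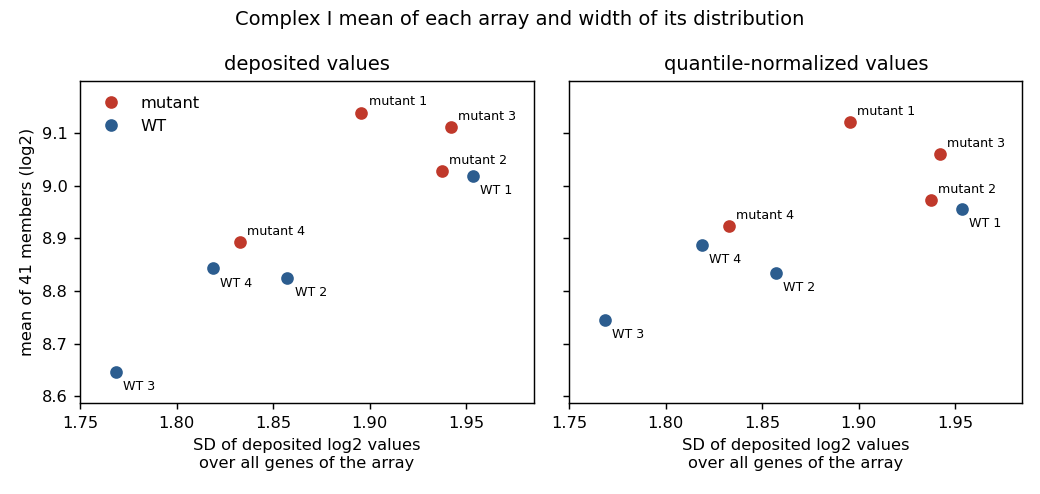
Mean log2 value of the 41 members on each array (vertical axis) against the SD of that array's deposited values over all genes (horizontal axis), on deposited (left) and quantile-normalized values (right), with mutants in red and WT in blue. WT 3, with the smallest SD, 1.77, has the lowest mean in both panels, 8.65 and 8.75.

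On quantile-normalized values 30 of 41 members were above 0, with a median of 0.18, where 52.3% of all genes were above 0 (median 0.01) and 57.6% of the 4985 brightest genes (median 0.04). All 30 of these members were also above 0 on the deposited values. The other 4, Ndufv1, Ndufa11, Ndufb8 and Ndufb9, were within 0.06 of 0 on the deposited scale and below 0 after quantile normalization. With both choices combined, quantile normalization without WT 3, which was added after seeing the data, 28 members were above 0 with a median of 0.13. Of all genes 55.4% were then above 0 (median 0.02), and of the 4985 brightest 55.5% (median 0.03).

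At an unadjusted limma p under 0.05, 6 of 41 members (14.6%) were higher in mutants and 0 were lower. Over all genes 2.72% were higher and 1.96% lower, and of the 4985 brightest genes 5.3% were higher and 1.14% lower. On quantile-normalized values 5 of the same 6 members were higher (12.2%) and 0 members lower. Over all genes 3.23% were then higher and 1.63% lower, and of the 4985 brightest genes 4.65% and 2.11%. The 6 members were Ndufs5, Ndufa2, Ndufa9, Ndufa3, Ndufb11 and Ndufb6, each with an adjusted p of 0.973. The count was 3 without WT 3, 3 without mutant 1 and 3 without WT 3 and mutant 4 together. Of all 19938 genes 441, 480 and 529 were higher in those settings, against 543 with every array. In 2 members, Ndufa2 and Ndufa3, every mutant value lay above every WT value (4.88% of members, against 1.08% of all genes and 2.33% of the 4985 brightest). In 0 members did every mutant value lie below, where 1.44% of all genes did. The same counts, 2 and 0, held on quantile-normalized values, against 1.61% and 1.1% of all genes.

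Ndufs5, an accessory subunit on the intermembrane-space face of the membrane arm, had log2 values of 9.72, 10.30, 10.78 and 10.99 in mutants 1 to 4, against 9.85, 9.07, 9.22 and 10.19 in WT 1 to 4. Mutants 2, 3 and 4 lay above all WT arrays, and mutant 1 lay among them. The difference was 0.87 ± 0.31 (SE), or 1.82-fold, with a 95% interval from 0.17 to 1.56 and an unadjusted limma p of 0.0189. Without WT 3 and mutant 4 it was 0.57. A second probe, which the annotation gives to Ndufs5 and a related pseudogene together, averaged 9.37 in mutants and 9.12 in WT, a difference of 0.25. The signal of gene and pseudogene may not be separable, so the value of Ndufs5 is uncertain.

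Ndufa2, a small accessory subunit of the matrix arm, had 10.53, 10.22, 10.24 and 10.42 in mutants, against 10.11, 9.93, 10.06 and 9.86 in WT. The groups did not overlap. The difference was 0.36 ± 0.13 (SE), or 1.28-fold, with an interval from 0.07 to 0.65 and a limma p of 0.0194. Ndufa3, a small subunit of the membrane arm, had 10.46, 10.57, 10.55 and 10.51 in mutants, against 10.28, 10.00, 10.18 and 10.30 in WT. The groups again did not overlap, and the mutant values lay close together (SD 0.05, against 0.14 in WT). Its difference was 0.33 ± 0.12 (SE), or 1.26-fold, with an interval from 0.06 to 0.60.

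Ndufa9, an accessory subunit near the junction of both arms that binds a nucleotide cofactor, had 8.74, 8.73, 8.63 and 8.85 in mutants, against 8.68, 8.04, 7.63 and 8.36 in WT. The mutant values were close together (SD 0.09) and the WT values wide apart (SD 0.45), with WT 1 inside the mutant range. The difference was 0.56 ± 0.21 (SE), or 1.48-fold, with an interval from 0.11 to 1.02. It was 0.34 without WT 3 and mutant 4.

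Ndufb11 and Ndufb6 are accessory subunits of the membrane arm, and Ndufb11 lies on the X chromosome. Ndufb11 had 10.67, 10.09, 10.34 and 10.33 in mutants, against 10.40, 9.80, 9.76 and 9.46 in WT. Of the WT arrays, only WT 1 reached into the mutant range, and the high-Xist arrays, mutant 4 and WT 3, lay inside the range of their groups. The difference was 0.50 ± 0.21 (SE), or 1.42-fold, and a second probe of the gene gave 0.59. Ndufb6 had 9.84, 10.31, 9.81 and 9.93 in mutants, against 9.76, 9.92, 9.34 and 8.99 in WT. WT 2 overlapped the mutants, and the difference was 0.47 ± 0.21 (SE), or 1.39-fold, with a lower bound of the interval at 0.00. Without WT 4, the lowest array, it was 0.30.

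**Figure D3:**
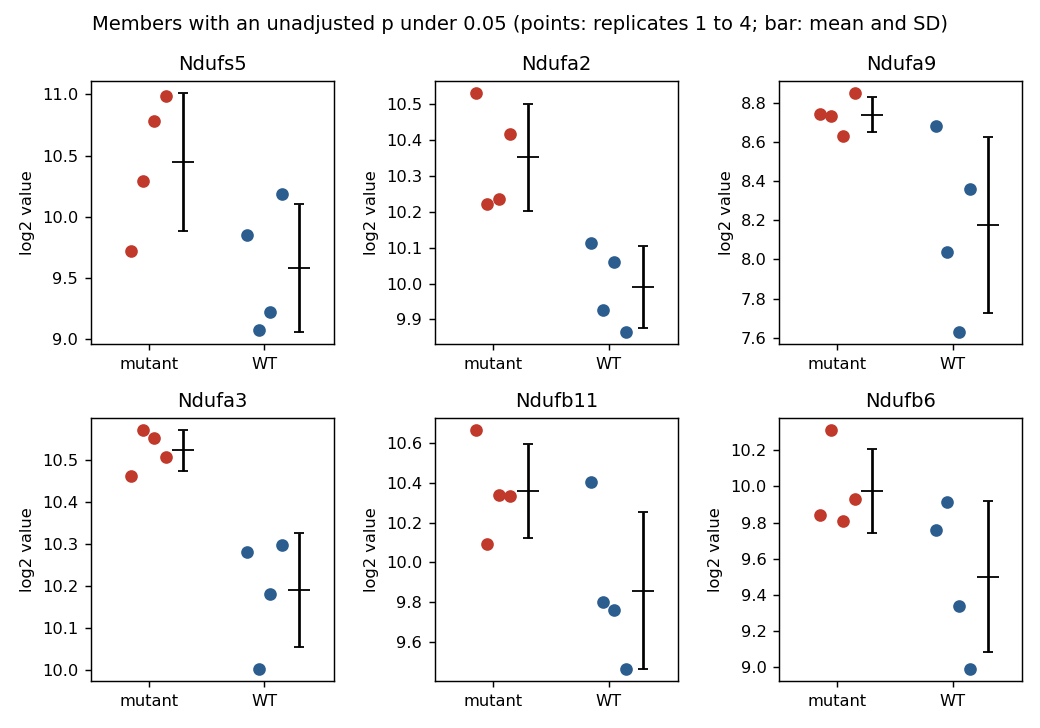
Log2 values of the 6 members with an unadjusted limma p under 0.05, with mutants (red) left of WT (blue), points for replicates 1 to 4 from left to right, and a bar for the mean and SD (n = 4 each). The groups are apart for Ndufa2 and Ndufa3 and overlap for the other 4; each panel has its own vertical scale, which does not start at 0.

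The core subunits, which carry the flavin and the iron-sulfur clusters, had 5 of 6 members above 0, with a median difference of 0.12, and 0 had an unadjusted limma p under 0.05. Their probes ran from a mean of 7.71 (Ndufs8) to 9.14 (Ndufs3), and levels of different probes are not compared. Ndufs3, a structural core subunit near the quinone site, had 9.39, 9.70, 8.82 and 9.59 in mutants and 9.03, 9.20, 8.48 and 8.88 in WT. In both groups replicate 3 was the lowest array, and the difference was 0.47 ± 0.22 (SE, limma p 0.0540). Ndufv1, which binds NADH and the flavin, differed by 0.02 with an interval from -0.56 to 0.59, which leaves a wide range of differences undetectable. Ndufv2 (0.16 ± 0.21) and Ndufs8 (0.09 ± 0.28), both iron-sulfur subunits, differed by less than their SE. Ndufs1, the largest subunit, differed by -0.07 ± 0.20. The spread among embryos was wide in this class, with a median SD of 0.39 in mutants and 0.39 in WT, against 0.26 and 0.26 over all members.

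Among the 9 accessory subunits of the matrix arm, 7 were above 0, with a median of 0.24, and their probes had means from 8.25 (Ndufa12) to 10.42 (Ndufs4). Outside Ndufa2 and Ndufa9, Ndufa5 and Ndufv3 differed most in size, by 0.42 ± 0.24 and 0.35 ± 0.20 (SE). Ndufa5 had 9.24, 9.20, 9.93 and 9.31 in mutants and 9.39, 8.91, 8.41 and 9.30 in WT, with mutant 3 the highest array and WT 3 the lowest. Ndufs4, whose loss in mice models a mitochondrial encephalopathy, differed by -0.11 (interval -0.47 to 0.25). Ndufa7 differed by -0.01 (interval -0.42 to 0.40), with an SD of 0.39 among mutants and 0.06 among WT.

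Of the 18 accessory subunits of the membrane arm, 16 were above 0, with a median of 0.22, and their probes had means from 6.88 (Ndufa13) to 11.31 (Ndufa11). Ndufb10, a subunit that faces the intermembrane space, was the member with the most negative difference, -0.41 ± 0.22 (SE, limma p 0.0850). It had 8.78, 8.52, 8.12 and 7.77 in mutants and 8.55, 9.02, 8.58 and 8.69 in WT, with mutants 2, 3 and 4 below all WT arrays. Ndufb7 had the widest spread among mutants, 10.53, 10.09, 10.92 and 9.17 (SD 0.75), against 10.14, 9.88, 9.83 and 9.93 in WT. Ndufb3 was lowest in WT 3, at 5.96, against 7.08 to 7.59 in the other WT arrays and 6.93 to 7.73 in mutants. Ndufa1, the other X-linked member, had 9.19, 9.29, 9.53 and 10.24 in mutants and 9.54, 8.46, 9.29 and 9.35 in WT, a difference of 0.40 ± 0.28. In it mutant 4, of high Xist, was the highest array, while WT 3, also of high Xist, was not high. Ndufa4, which carries a complex I name but is now assigned to cytochrome oxidase, had means of 11.03 ± 0.18 in mutants and 11.06 ± 0.38 in WT (SD), a difference of -0.03.

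The 7 assembly factors had 6 members above 0, with a median of 0.25, and 0 had an unadjusted limma p under 0.05. Their probes had means from 5.61 (Ndufaf7) to 8.76 (Ndufaf4). Ndufaf1, which helps to build the membrane arm, had 7.64, 7.29, 7.89 and 7.76 in mutants and 7.44, 6.97, 7.67 and 6.51 in WT, a difference of 0.50 ± 0.24 (SE). Ndufaf2, a chaperone of late assembly, differed by 0.38 ± 0.25, with WT 4 lowest at 7.70. Ndufaf3 and Ndufaf4, which bind each other early in assembly, differed by 0.07 ± 0.15 and 0.24 ± 0.14. Ndufaf5, which hydroxylates the core subunit Ndufs7, differed by -0.01 ± 0.26, with mutant 1 at 7.95 and the other mutants at 6.60 to 7.18. Ndufaf7, a methyltransferase, had 5.90, 5.65, 5.85 and 5.54 in mutants and 5.50, 5.43, 5.30 and 5.70 in WT, a difference of 0.25 ± 0.14. Its probe mean of 5.61 was at the median of all genes, and whether it lies above background is unknown.

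**Figure D4:**
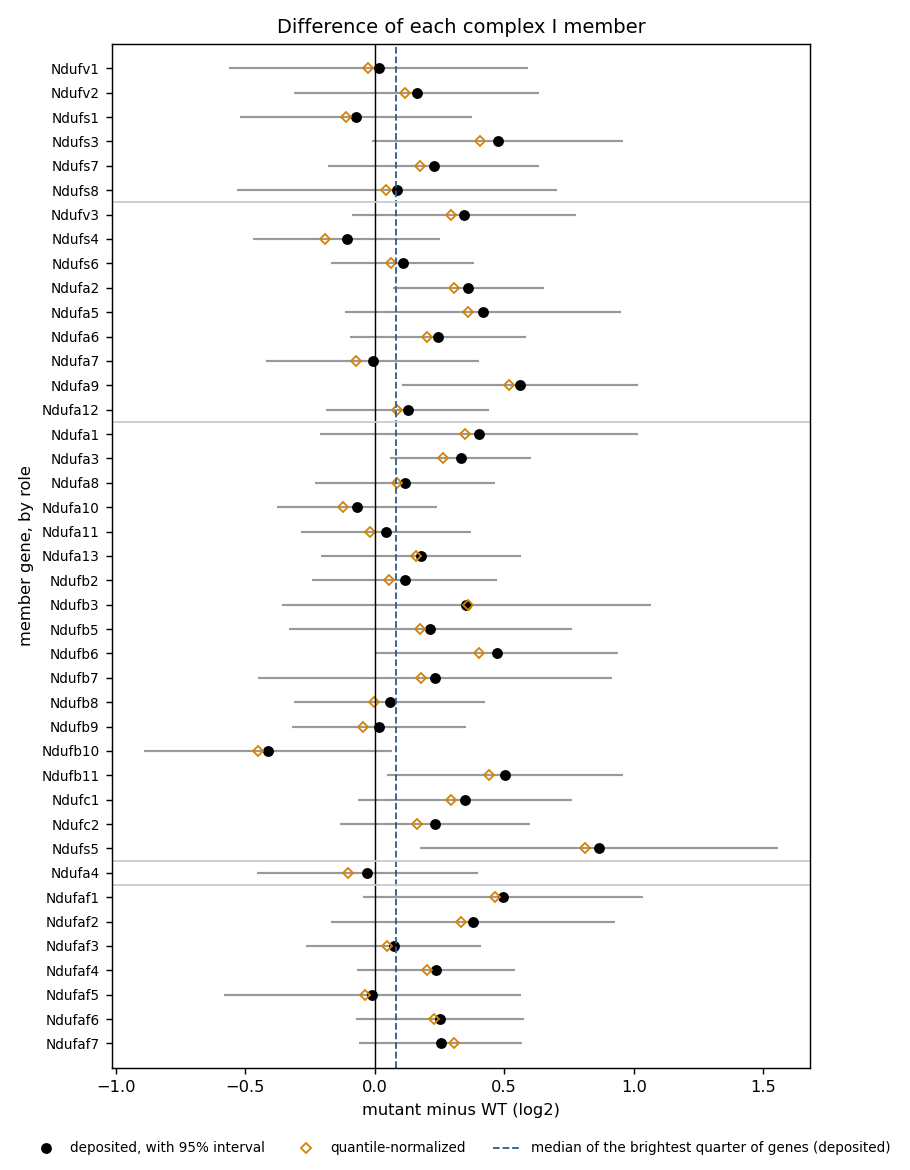
Difference of each member, mutant minus WT on the log2 scale, with the 95% interval from limma (black points and grey lines) and the value after quantile normalization (open diamonds), grouped by role from core subunits (top) to assembly factors (bottom). Of the 41 intervals, 35 include 0; the dashed line marks 0.08, the median of the 4985 brightest genes.

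The intervals show what the design could resolve. The median half-width of the 95% interval was 0.41 over the members, and for 27 members the upper bound was above 0.5. Differences smaller than about that half-width were therefore not detectable for many members, even before adjustment over all genes. After adjustment larger differences were not called either. Those of Ndufs5 (0.87) and Ndufa9 (0.56) each had a limma adjusted p of 0.973. For 4 members a second probe of a single symbol was present, and it gave a difference of the same sign: 0.44 for Ndufs3, 0.40 for Ndufc1, 0.59 for Ndufb11 and 0.17 for Ndufa11, where the probes used gave 0.47, 0.35, 0.50 and 0.04.

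Members varied together only in part over the 8 arrays. The median Pearson correlation over 820 pairs of members was 0.26 on deposited values and 0.12 after quantile normalization, with 77.7% and 62.9% of pairs above 0. No such values were computed over all genes or the brightest genes, so these cannot be called particular to the members. All points share the same arrays, and the arrays of both groups were pooled. Ndufaf7, Ndufa9, Ndufv3, Ndufb3 and Ndufa5 tracked the mean of the other members most closely after quantile normalization (r from 0.69 to 0.94 over 8 arrays). Ndufb10 (-0.38) and Ndufa10 (-0.32) ran opposite to it.

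Promoter sequences were available for 37 of 41 members (RefSeq, GRCm38.p6). The 250 bases before the start that this table uses were searched on both strands for motifs linked to nuclear genes of mitochondria: GCGCA, any base and GCGC for Nrf1, CCGGAAG for ETS factors such as Gabpa, AAGATGGC for Yy1 and GGGCGG for Sp factors. None of the 4 motifs contains another, and matches of different motifs may share bases. The Nrf1 letters were found for 6 of 37 members (16.2%), against 6.43% of genes tested, 12.6% of the brightest genes and 4.23% of all genes with a promoter. The ETS letters were found for 4 (10.8%), against 10.7% of genes tested, 20% of the brightest and 7.83% of all. The Yy1 letters were found for 0, against 1.86% of genes tested, 3.30% of the brightest and 1.83% of all. The Sp letters were found for 16 (43.2%), against 49.4% of genes tested, 68.3% of the brightest and 35.4% of all. The Nrf1 letters stood before Ndufa11, Ndufa5, Ndufa8, Ndufaf4, Ndufs5 and Ndufs6, whose differences between mutant and WT ran from 0.04 to 0.87. The ETS letters stood before Ndufaf1, Ndufb6, Ndufb7 and Ndufs3. Of the 6 members with an unadjusted p under 0.05, Ndufs5 is listed with the Nrf1 letters and Ndufb6 with those of ETS factors, and both are shown as examples, 5′ to 3′ on the strand of the gene, with matches in capitals. In Ndufs5 (chr4:123718187-123718436, minus strand) the match lies 98 to 89 bases before the start. In Ndufb6 (chr4:40279422-40279671, minus strand) the ETS letters lie 232 to 226 bases before it, and both other matches are those of Sp.
Ndufs5: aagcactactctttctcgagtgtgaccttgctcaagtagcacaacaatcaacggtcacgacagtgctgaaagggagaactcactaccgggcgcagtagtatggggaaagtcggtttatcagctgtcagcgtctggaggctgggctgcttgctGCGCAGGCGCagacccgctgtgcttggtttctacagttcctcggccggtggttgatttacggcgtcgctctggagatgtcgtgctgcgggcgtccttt
Ndufb6: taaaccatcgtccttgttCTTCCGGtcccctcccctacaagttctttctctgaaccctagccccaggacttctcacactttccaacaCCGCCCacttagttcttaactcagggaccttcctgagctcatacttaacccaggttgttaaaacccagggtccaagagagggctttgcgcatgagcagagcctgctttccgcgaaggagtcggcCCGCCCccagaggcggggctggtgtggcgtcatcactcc
These matches describe letters only. Ndufa9 and Ndufb11 held none of these motifs in the same window. The window of Ndufa3, which held only the Sp letters, does not end at the gene start of the annotation.

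Developmental stage was addressed with the somite number, fitted together with genotype. No member passed: 0 of 41 had a limma adjusted p under 0.05, where 0% of all genes did. Slopes were above 0 for 34 of 41 members, with a median of 0.05 log2 per somite, against 40.5% of all genes (median -0.02) and 72.7% of the 4985 brightest genes (median 0.04). The median of the members was 0.094 without WT 4, and 0.040 to 0.075 with any other single array left out. After quantile normalization 31 members were above 0 with a median of 0.03, against 42.3% of all genes and 58.8% of the 4985 brightest genes. All 6 core subunits had positive slopes on deposited values, and 5 of 6 did after quantile normalization.

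At an unadjusted limma p under 0.05, 3 of 41 members (7.32%) had a positive slope and 0 a negative one, against 5.02% and 4.72% of all genes and 11% and 1.28% of the 4985 brightest. Without WT 4 the count of positive slopes was 7 among members and 1076 among all 19938 genes, against 1000 of all genes with every array. After quantile normalization 0 members had a positive and 0 a negative slope at that threshold. Of all genes 4.16% and 4.23% did, and of the 4985 brightest 7.08% and 3.13%. The 3 were Ndufs7, Ndufb11 and Ndufb6. Ndufs7, which carries the last iron-sulfur cluster before ubiquinone, was at 8.13, 8.18, 8.29 and 8.26 in mutants of 21 to 22, 22 to 23, 23 and 24 somites (midpoints were fitted), and at 7.60, 7.83, 8.02 and 8.50 in WT embryos of 21, 22, 25 and 25 somites. The slope was 0.14 ± 0.05 per somite (SE), with a limma adjusted p of 0.474, and was 0.086 without WT 2. The mutant values lay close together (SD 0.07) and the WT values wide apart (SD 0.38). Ndufb11 and Ndufb6 had slopes of 0.15 ± 0.06 and 0.14 ± 0.06, each with WT 4, of 21 somites, as the lowest array, and without WT 4 the slope of Ndufb6 was 0.082. The slope of Ndufb11 was 0.090 without WT 1. Among negative slopes, Ndufs5 had -0.18 ± 0.10, Ndufa1 -0.15 ± 0.09 and Ndufa4 -0.05 ± 0.07. The slope of Ndufs5 was -0.29 without WT 1, -0.11 without WT 4 and -0.11 without mutant 1. That of Ndufa1 was -0.28 without WT 1, -0.07 without WT 2 and -0.09 without mutant 4, and that of Ndufa4 was 0.049 without WT 4. In Ndufs5 the youngest mutant, mutant 4, was the highest array and the oldest mutant, mutant 1, was the lowest of the mutants. With somite number in the model, 36 members were above 0 for mutant minus WT, with a median of 0.24. Of all genes 43.0% were then above 0 (median -0.04), and of the 4985 brightest 69.4% (median 0.10).

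**Figure D5:**
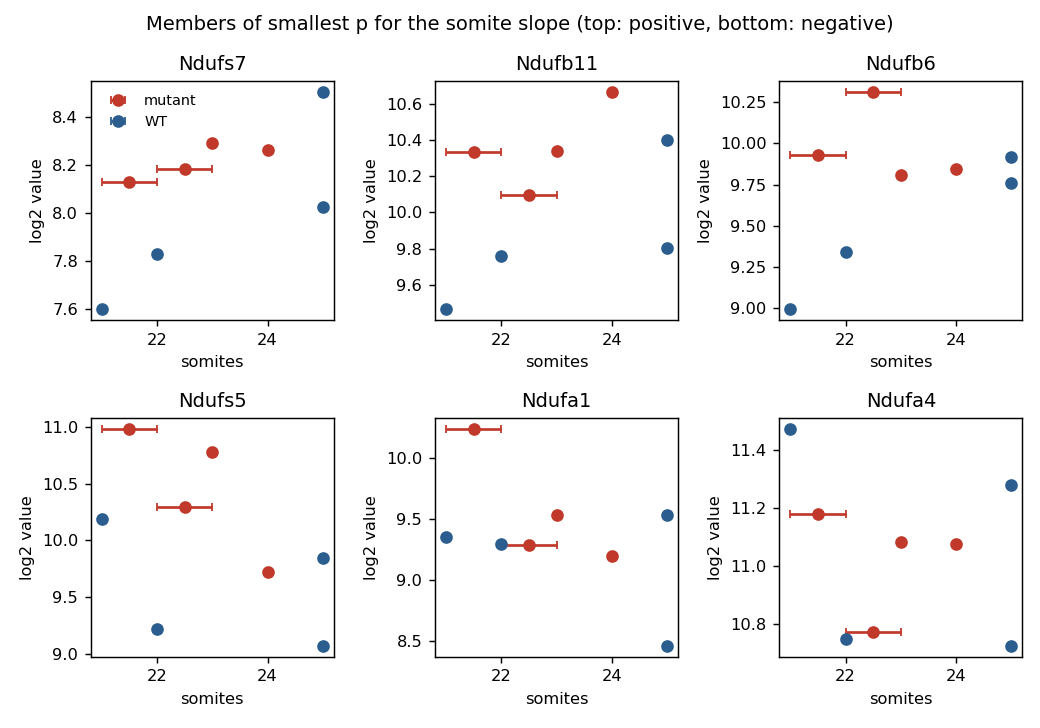
Log2 values of the 3 members of smallest p with a positive slope (top) and of the 3 with a negative slope (bottom) against somite number, with mutants in red, WT in blue and horizontal bars for somite ranges in the labels. Ndufs7, Ndufb11 and Ndufb6 are lowest in the WT embryo of 21 somites, and Ndufs5 and Ndufa1 are highest in the mutant of 21 to 22 somites. Vertical scales differ and do not start at 0.

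Other genes of complex I and of neighbouring steps came from lists outside the naming rule, chosen with earlier results of these data known. Of 13 further assembly factors, 9 were above 0 with a median of 0.26. At an unadjusted limma p under 0.05, 3 were higher (23.1%, against 2.72% of all genes). After quantile normalization 2 were higher (15.4%, against 3.23% of all genes), and Dmac1 had a limma p of 0.0543. For these lists no values without WT 3 are given. Dmac2, a factor for the distal part of the membrane arm, was at 8.68 ± 0.53 in mutants and 7.58 ± 0.70 in WT (SD), a difference of 1.10 ± 0.35 (SE). Dmac1, with a role in the same part, differed by 0.62 ± 0.24, and Tmem126b, a partner of Ndufaf1 in membrane-arm assembly, by 0.36 ± 0.16. Ndufab1, the mitochondrial acyl carrier protein and a subunit of both arms, was at 9.57 ± 0.26 in mutants and 8.98 ± 0.27 in WT, a difference of 0.59 ± 0.18. All 4 had a limma adjusted p of 0.973. The 8 genes of complex II, which feeds electrons from succinate, had 5 above 0 and a median of 0.06, and 0 had an unadjusted p under 0.05.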

How the data were processed

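PGCs of 8 embryos were hybridised to 1 array each. Per the labels' protocols, cells were sorted straight into lysis buffer, and NuGEN kits (Ovation FFPE WTA, Encore) served for amplification and biotin labelling. The deposited table holds 1 value per probe, taken as log2 from its range because it names no unit; the authors' background correction, normalization and summary step: not given in the sources used here. No scanner values were used, so no detection limit is set. Of 35557 probes, 21789 had 1 gene symbol in the platform annotation, 1621 several and 12147 none; a gene took its single-symbol probe of highest mean. Sample columns left unused numbered 0.

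The fits across all 19938 genes used limma 3.58.1 (R 4.3.3), with Benjamini-Hochberg adjustment, a threshold of 0.05 and two-sided p-values. Groups, replicates and somite numbers came from the labels, with midpoints for ranges. Alternatives were quantile normalization, median centring, equal width, a level filter, mean over probes, somite and replicate terms, array weights, an intensity trend and leaving out arrays. Scripts were tested on simulated data. The rule named every member with an unadjusted p under 0.05 (up to 12) and the 3 of smallest slope p per direction, with the probes of highest and lowest mean in each role. The members and lists were chosen with earlier results of these data known. The labels number embryos 1 to 4 in each group; deviations of same-numbered embryos correlated at -0.05, 0.04, -0.19 and 0.10, so the numbers were not taken as pairs.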

Additional observations from a re-analysis of the deposited data

Results flagged for a closer look

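In 6 of the 82 sets of 4 arrays formed by 41 members and 2 groups (7.32%), 1 array lay far from the other 3. Chance gives about 1 in 20 for independent sets, but these sets share the same 8 arrays. The rule was not run over all genes, so the share cannot be called particular to the members. Ndufv2 was at 8.08 in WT 3, against 8.85 to 8.95 in the other WT arrays. Ndufs1 was at 8.70 in WT 1, against 8.19 to 8.28 in the others. Ndufa10 was at 9.95 in WT 2, against 9.63 to 9.68. Among mutants, Ndufv3 was at 8.88 in mutant 4, against 9.35 to 9.43 in the other 3. Ndufa5 was at 9.93 in mutant 3, against 9.20 to 9.31, and Ndufa8 at 7.91 in mutant 1, against 7.27 to 7.38. The 6 values came from 6 different arrays.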

How the results depend on the processing

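In every setting run, 0 members passed adjustment over all genes in either comparison. The count of members above 0 (34) lay between 28 and 39 over all settings. The count of higher members at an unadjusted p under 0.05 (6) was 3 with arrays scaled to equal width, 3 without WT 3 and mutant 4, 3 after quantile normalization without WT 3 (added after seeing the data), and 3 to 7 with single arrays left out (3 without WT 3 and without mutant 1). That of lower members was 0 to 1 (1 without mutant 1). Over all genes, higher genes numbered 590, 529, 570 and 424 to 858 in those settings. Lower genes numbered 291 to 857 with single arrays left out. Median centring moved the split of all genes at that threshold to 796 higher and 230 lower, against 543 and 391 as deposited. With the replicate number as a block, 7 members were higher (574 of all genes), and only Ndufa3 lost its unadjusted p (0.0572). The 6 named members kept their direction in all 19 settings; in 38 of 114 recomputations the unadjusted p was above 0.05. Their limma adjusted p ran from 0.497 to 1.00. For the somite slope, the count of 3 was 0 after quantile normalization, 1 with no genotype in the model and 3 to 7 with single arrays left out (7 without WT 4), where negative slopes numbered 0 to 2 (2 without WT 1, 1 without WT 3). Over all genes, positive slopes at that threshold numbered 830, 794 and 763 to 1089 in those settings. Negative slopes over all genes numbered 535 to 1229 with single arrays left out. Equal width gave 1322 positive and 453 negative slopes over all genes, against 1000 and 942. The slope of Ndufa4 (-0.05 per somite) ran from -0.11 (without WT 1) to 0.049 (without WT 4) with single arrays left out, and the cause was not tested. Signal over background is unknown, which limits dim members such as Ndufaf7.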

Other observations

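Of 14 listed regulators of mitochondrial gene expression, 5 were above 0 with a median of -0.06, and 0 had an unadjusted limma p under 0.05 between mutant and WT. Nrf1, a transcription factor of respiratory genes, differed by -0.09 ± 0.17 (SE), Gabpa by -0.12 ± 0.13, and Tfam, which packages and transcribes mitochondrial DNA, by 0.10 ± 0.16. Yy1 differed by 0.34 ± 0.16 (limma p 0.0568) and Twnk, the mitochondrial DNA helicase, by -0.31 ± 0.20. Gabpb1, the partner of Gabpa, had a slope of 0.19 ± 0.07 per somite, with an adjusted p of 0.483.

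Within complex II, Sdhaf4 differed by 0.65 ± 0.29 and Sdhaf2 by -0.60 ± 0.33 (SE), and Sdhc averaged 8.61 in mutants and 8.83 in WT. The pair of probes shared by Ndufb4 and Ndufb4b averaged 9.81 and 9.87 in mutants, against 9.86 and 9.85 in WT. Ndufa4l2, a relative of Ndufa4 known as a hypoxia target, averaged 5.20 in mutants and 5.24 in WT, a difference of -0.04 ± 0.15.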
